A study of Mus musculus with 2 samples.

Results

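Dendritic cell subset genes were followed in splenic RNA of APAP-treated and control mice. The set was given as 34 gene names, chosen as genes of conventional type 1, conventional type 2, plasmacytoid or mature dendritic cells, and each name was looked up among the 22791 genes with at least 1 count. Of the 34 names, 32 had a row. Dcir3 and Klrk1x matched no row and were not analysed here. The genes were grouped by the subset they are best known for: 2 shared by conventional dendritic cells, 9 of type 1 cells, 7 of type 2 cells, 7 of plasmacytoid cells and 7 of mature cells.

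The APAP group consisted of male C57BL/6J wildtype mice (labelled C57BL/6) of 9 to 11 weeks that received 300 mg/kg acetaminophen (APAP) i.p. in 0.9% NaCl. The ctrl group received 0.9% NaCl alone, and mice of both groups were fasted overnight beforehand. Spleens were taken at 30 h, and the study looked at this time point to learn how the spleen responds while liver injury turns towards resolution. RNA of 11 APAP mice and of 5 ctrl mice was pooled at equal shares, so that each group was 1 library and no spread between mice could be measured. Whole spleen was used, hence fewer cells of a type and less RNA per cell cannot be told apart.

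Dendritic cells take up antigen, process it and present it to T cells. Type 1 cells are known for cross-presenting material of dead cells to CD8+ T cells, type 2 cells for priming CD4+ T cells, and plasmacytoid cells for releasing type I interferon when their endosomal receptors meet nucleic acids. Upon maturation, conventional dendritic cells raise costimulatory molecules and the chemokine receptor Ccr7 and move into T cell areas. In the spleen they sit in the marginal zone, the bridging channels and the white pulp.

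Libraries were made by massive analysis of cDNA ends (MACE), which reads the 3′ ends of transcripts, so that a count does not depend on transcript length. The APAP library held 2890947 counts and the ctrl library 2735788 counts, and levels are given as CPM, the count scaled to the library total, of which 1 count made 0.346 in APAP. All 8 genes of a list of spleen stroma were detected, among them the spleen-defining transcription factor Tlx1 with 134 counts in APAP and 101 counts in ctrl. A list of 19 pancreas genes took 1.55% of all counts in APAP and 5.27% in ctrl, and haemoglobin genes took 6.20% in APAP and 5.29% in ctrl. Below, a ratio is the APAP count over the ctrl count after division by DESeq2 size factors. It is given with its exact 95% interval, which covers counting error only, and no p-value was computed as each group had 1 library. A member is called higher or lower in APAP where it had at least 20 counts over both libraries and this interval lay above or below 1.

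Promoters of 22 members were found in the RefSeq table for GRCm38.p6 (28 promoters, each of 300 bases around a start site). They were searched on both strands for 3 motifs of transcription factors that act in dendritic cells. An interferon-stimulated response element (ISRE), written as GAAA, any 2 bases and GAAA again, was in the promoters of 3 of the 22 members, against 3.99% of all genes in the table. Those members were Apol7c, Bst2 and Ifi205. An NF-kB site, written as GGGA, any 2 bases and TTCC, was in 1 member (Ppt2), against 1.63% of genes. An AP-1 site, TGANTCA, was in 2 members (Cd80 and Zbtb46), against 8.97% of genes. The promoters with an ISRE are shown, since they include the member with the lowest ratio among those with at least 20 counts, together with that of Fscn1, which was also lower in APAP and held none of these motifs. Capitals mark the ISRE matches, which can overlap each other and which read as TTTC, any 2 bases and TTTC where they lie on the opposite strand. A match is a description of the letters only.
Apol7c (chr15:77533266-77533565, minus strand, GRCm38.p6): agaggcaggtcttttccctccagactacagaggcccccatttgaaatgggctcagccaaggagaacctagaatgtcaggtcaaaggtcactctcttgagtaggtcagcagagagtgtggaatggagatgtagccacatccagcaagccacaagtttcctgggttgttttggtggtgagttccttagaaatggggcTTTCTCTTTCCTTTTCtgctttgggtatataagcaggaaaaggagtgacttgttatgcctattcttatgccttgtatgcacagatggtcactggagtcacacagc
Bst2 (chr8:71537423-71537722, minus strand, GRCm38.p6): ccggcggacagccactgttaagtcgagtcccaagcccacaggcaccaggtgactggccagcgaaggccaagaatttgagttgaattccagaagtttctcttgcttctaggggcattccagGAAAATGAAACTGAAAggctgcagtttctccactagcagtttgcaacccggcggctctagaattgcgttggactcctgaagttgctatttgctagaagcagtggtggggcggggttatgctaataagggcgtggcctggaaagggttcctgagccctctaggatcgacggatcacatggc
Ifi205 (chr1:174031706-174032005, minus strand, GRCm38.p6): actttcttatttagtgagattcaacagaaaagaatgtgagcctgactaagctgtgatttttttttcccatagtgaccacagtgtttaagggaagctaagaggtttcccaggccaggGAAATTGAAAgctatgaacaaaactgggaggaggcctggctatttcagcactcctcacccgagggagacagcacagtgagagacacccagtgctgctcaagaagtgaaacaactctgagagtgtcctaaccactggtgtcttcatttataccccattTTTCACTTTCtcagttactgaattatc
Fscn1 (chr5:142960105-142960404, plus strand, GRCm38.p6): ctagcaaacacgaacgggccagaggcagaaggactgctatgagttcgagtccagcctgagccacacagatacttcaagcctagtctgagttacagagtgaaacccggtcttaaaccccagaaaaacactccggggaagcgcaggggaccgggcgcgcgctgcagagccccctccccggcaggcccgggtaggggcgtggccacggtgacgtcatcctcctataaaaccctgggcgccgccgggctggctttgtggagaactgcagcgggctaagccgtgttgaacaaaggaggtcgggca

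Of the 32 members, 29 had at least 20 counts, and Snx22, Clec4a4 and Mgl2 had fewer. Among the 29, 15 ratios lay above 1 and 14 below, with a median log2 ratio of 0.02. The median over all 12929 genes with at least 20 counts was likewise 0.02. Over the 8 of these members taken as largely restricted to dendritic cells, the median was -0.14, with 5 ratios below 1. The other 21 are also used by other cells. Higher in APAP were 6 members (Irf8, Ppt2, Sirpa, Cd300a, Cd86 and Lair1), against a background of 9.13% of all genes with at least 20 counts. Lower in APAP were 5 members (Wdfy4, Ly6d, Relb, Apol7c and Fscn1), against a background of 6.57%. Since members have more counts than most genes, the same was set against genes with at least 50 counts, where 26 members remained. The backgrounds were then 10.2% higher and 7.1% lower, beside the same 6 and 5 members. With edgeR's TMM factors or the upper quartile in place of the size factors, the intervals of Irf8, Sirpa and Cd86 included 1, which left 3 members higher.

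By size, 1 member stood out. Under a stricter rule, which also asked for a ratio of at least 2 or at most 0.5, 0 members were higher (background 1.39%) and Apol7c alone was lower (background 1.68%). By the threshold of the study, a change of more than 3-fold with no minimum count, 0 members were higher (background 2.4% of all 22791 genes) and 2 were lower (background 3.74%). These were Apol7c and Mgl2, which had 1 count in APAP and 3 counts in ctrl and thus passed on 4 counts in all.

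**Figure D1:**
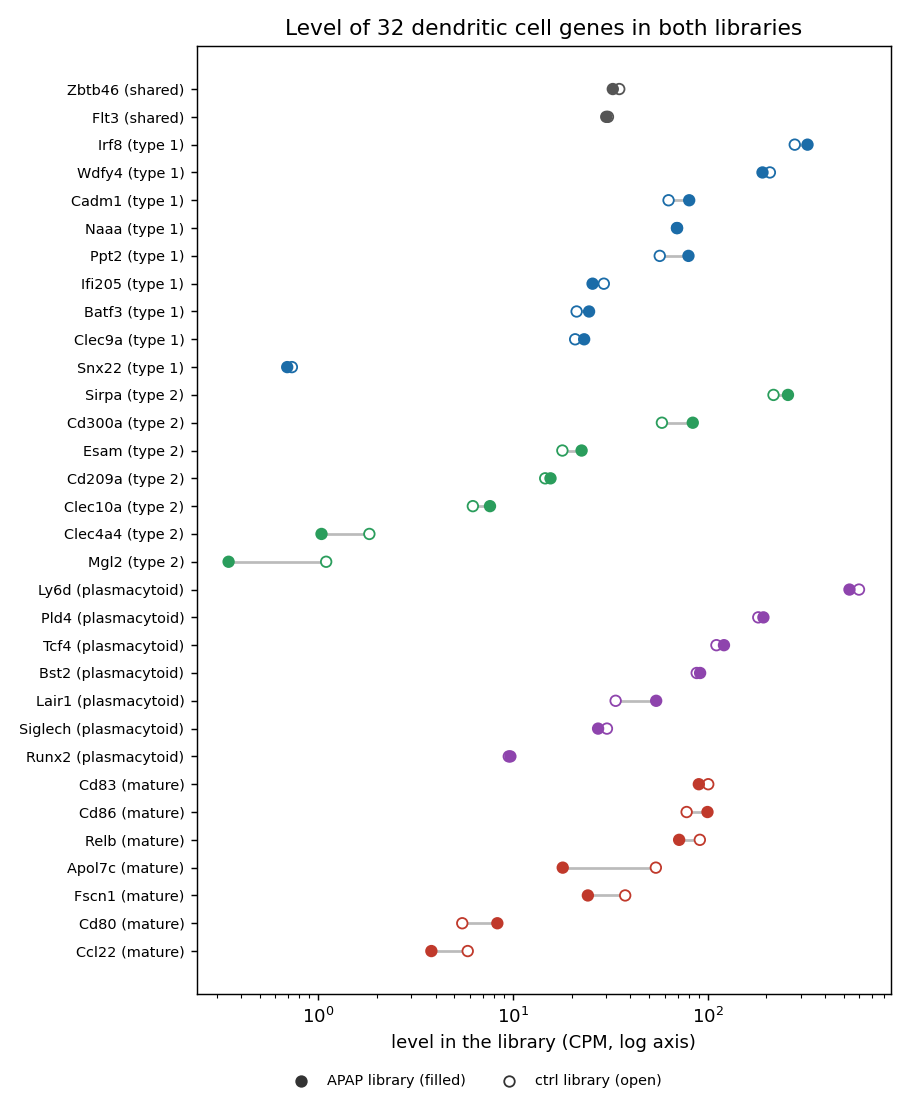
Level of the 32 members in CPM on a log axis, with the APAP library as filled points and the ctrl library as open points, grouped by subset. The lowest level was that of Mgl2 in APAP (0.346 CPM, against 1.10 CPM in ctrl) and the highest that of Ly6d (534 CPM in APAP and 598 CPM in ctrl), and the widest gap among members with at least 20 counts was that of Apol7c, with 18.0 CPM in APAP and 54.1 CPM in ctrl.

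Taken as largely restricted to dendritic cells, a choice not tested in these data, were 11 members (Flt3, Zbtb46, Clec9a, Snx22, Cd209a, Clec10a, Clec4a4, Mgl2, Siglech, Apol7c and Ccl22). They came to 463 counts in APAP and 551 counts in ctrl, a ratio of 0.756 (0.667 to 0.857). Without Apol7c, a comparison chosen after its value was seen, the sum was 411 counts in APAP and 403 counts in ctrl, a ratio of 0.918 (0.798 to 1.06). Thus the sum was lower only with Apol7c in it. Neither gene shared by conventional dendritic cells was called higher or lower. Flt3, the receptor for the growth factor that dendritic cell precursors depend on, had 87 counts in APAP and 84 counts in ctrl (ratio 0.932, 0.683 to 1.27). Zbtb46, a transcription factor that marks conventional dendritic cells and their committed precursors, had 94 counts in APAP and 96 counts in ctrl (ratio 0.881, 0.656 to 1.18).

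Among type 1 genes, Irf8 and Ppt2 were higher, Wdfy4 was lower and the others were not called. The called genes are also used by other cells, as is Batf3. Calls depend on counts as well, since Batf3 was not called at a ratio of 1.10. Irf8, with far more counts, was called at 1.11. The median log2 ratio of 8 genes was 0.11. Clec9a, the receptor by which type 1 cells sense actin exposed on dead cells, had 67 counts in APAP and 57 counts in ctrl (ratio 1.06, 0.732 to 1.53). Its exons overlap those of Clec1b on the same strand, so that a part of these reads may belong to that gene. Batf3, the transcription factor required for type 1 cells, had 71 counts in APAP and 58 counts in ctrl (ratio 1.10, 0.768 to 1.59). Irf8, its partner, which B cells and monocytes also express, was the most abundant type 1 gene. It had 940 counts (325 CPM) in APAP and 765 counts (280 CPM) in ctrl, and was higher by a ratio of 1.11 (1.004 to 1.22). Wdfy4, needed for cross-presentation of cell-associated antigen and also found in B cells, was lower in APAP, with 552 counts in APAP and 570 counts in ctrl (ratio 0.872, 0.774 to 0.982). The intervals of Irf8 and Wdfy4 excluded 1 under 4 of 6 scalings each.

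Ppt2, a lysosomal thioesterase, was higher, with 230 counts (79.6 CPM) in APAP and 155 counts (56.7 CPM) in ctrl (ratio 1.34, 1.08 to 1.65). Its exons are shared with the read-through gene Gm20460 on the same strand. The adhesion molecule Cadm1 had 232 counts in APAP and 172 counts in ctrl (ratio 1.21, 0.992 to 1.49), and its interval lay above 1 under 3 of 6 scalings. Naaa, a lysosomal amidase, had 201 counts in APAP and 190 counts in ctrl (ratio 0.952, 0.777 to 1.17). Ifi205, an interferon-inducible gene whose promoter is printed above, had 74 counts in APAP and 80 counts in ctrl (ratio 0.833, 0.599 to 1.16). The sorting nexin gene Snx22 had 2 counts in each library, and the adjacent Ppib overlaps it on the opposite strand. Summed over the 9 genes, type 1 counts were 2369 in APAP and 2049 in ctrl, a ratio of 1.04 (0.980 to 1.10).

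All 5 type 2 genes with at least 20 counts had a ratio above 1, as did 6878 of all 12929 genes with as many counts. Cd209a came to 0.993 both with TMM factors and with the upper quartile. The median log2 ratio of the 5 type 2 genes was 0.22. The 2 that were called higher are inhibitory receptors that macrophages and other myeloid cells carry as well. They are also the type 2 genes with the most counts. Clec10a and Esam, with fewer counts, were not called at ratios of 1.16 and 1.19, above that of Sirpa. Sirpa, the receptor for the "do not eat me" signal Cd47, had 746 counts (258 CPM) in APAP and 595 counts (217 CPM) in ctrl (ratio 1.13, 1.01 to 1.26). Cd300a, which binds phospholipids on dying cells, had 242 counts (83.7 CPM) in APAP and 159 counts (58.1 CPM) in ctrl (ratio 1.37, 1.12 to 1.68). Beside these values, all 10 genes of a red pulp macrophage list were higher (summed ratio 1.52, 1.47 to 1.56), as were 6 of 10 monocyte genes (summed ratio 1.17, 1.13 to 1.20). A neutrophil list had 9 of 10 genes higher, with 10890 counts in APAP and 4017 counts in ctrl (summed ratio 2.44, 2.35 to 2.53). The part of those cells in the type 2 values was not tested. Summed over the 7 genes, type 2 counts were 1124 in APAP and 868 in ctrl, a ratio of 1.17 (1.07 to 1.27), most of them from Sirpa.

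The other type 2 genes, all but Esam taken as largely restricted to dendritic cells, were less abundant. Cd209a, a homologue of human DC-SIGN, had 45 counts in APAP and 40 counts in ctrl (ratio 1.01, 0.647 to 1.59). Clec10a, a lectin for galactose-type sugars, had 22 counts in APAP and 17 counts in ctrl (ratio 1.16, 0.591 to 2.34). Esam, an adhesion molecule of Notch-dependent splenic type 2 cells and of endothelium, had 65 counts in APAP and 49 counts in ctrl (ratio 1.19, 0.811 to 1.77). An endothelium list of 9 genes, which holds Esam, had a summed ratio of 1.19 (1.10 to 1.28). Clec4a4, the lectin recognised by the antibody that marks type 2 cells of the marginal zone, had 3 counts in APAP and 5 counts in ctrl. At these counts neither Clec4a4 nor Mgl2 allowed a direction.

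**Figure D2:**
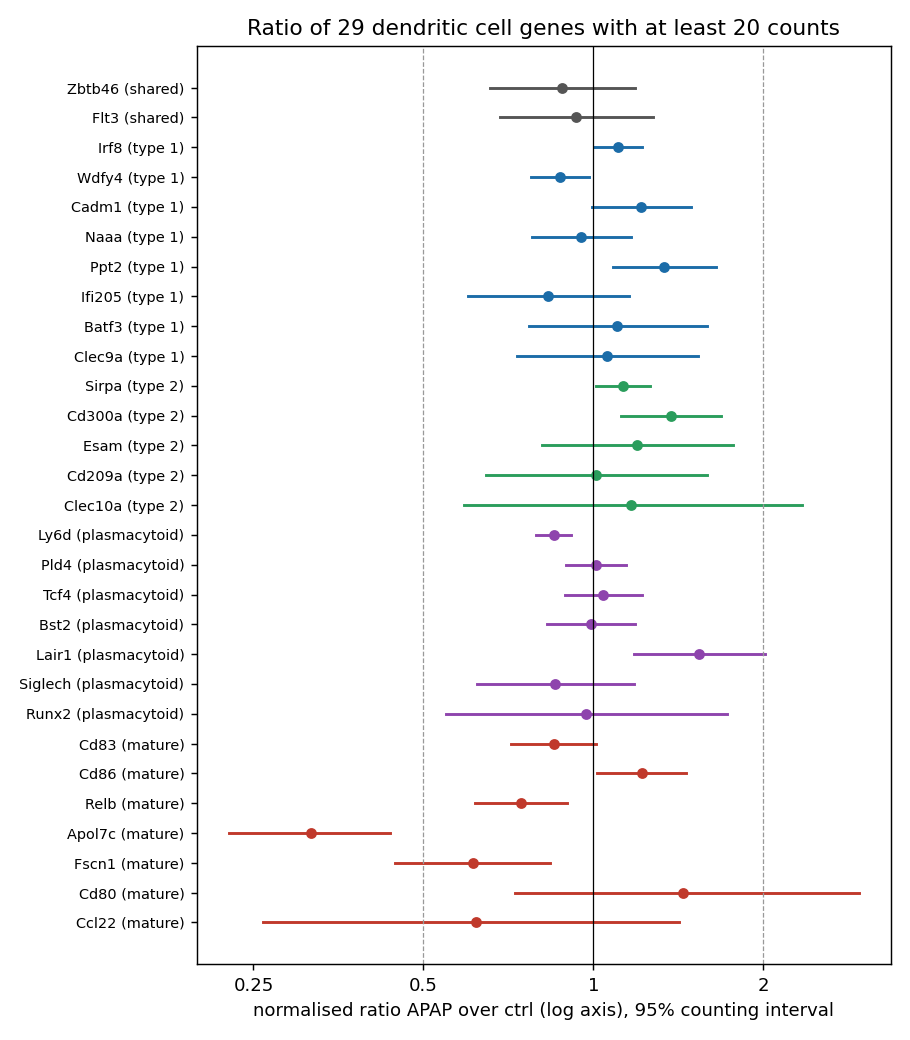
Normalised ratio APAP over ctrl of the 29 members with at least 20 counts on a log axis, grouped by subset, with exact 95% counting intervals as bars and dashed lines at 0.5 and 2. The whole interval of Apol7c (0.226 to 0.436) lay below 0.5, whereas each of the other members had a ratio between 0.612 (Fscn1) and 1.54 (Lair1).

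Of the plasmacytoid genes, Ly6d was lower, Lair1 was higher and the other 5 were not called. The median log2 ratio of the 7 genes was -0.01. Siglech, the surface lectin that defines plasmacytoid cells in mice, had 79 counts in APAP and 83 counts in ctrl (ratio 0.857, 0.621 to 1.18). Tcf4, the transcription factor that sets plasmacytoid identity, had 350 counts in APAP and 303 counts in ctrl (ratio 1.04, 0.889 to 1.22). Pld4, an exonuclease of endolysosomes, had 558 counts in APAP and 497 counts in ctrl (ratio 1.01, 0.894 to 1.14). Runx2, a transcription factor with a role in the exit of plasmacytoid cells from bone marrow, had 28 counts in APAP and 26 counts in ctrl (ratio 0.969, 0.548 to 1.72). These intervals all included 1, and that of Siglech was too wide to tell its ratio from that of Ly6d. Summed over the 7 genes, plasmacytoid counts were 2980 in APAP and 2876 in ctrl, a ratio of 0.933 (0.886 to 0.982). Ly6d made the largest share of this sum, with 1544 counts in APAP and 1635 counts in ctrl. It is not among the members taken as largely restricted to dendritic cells and was the only plasmacytoid gene called lower. The sum was not taken without Ly6d, so it does not show that plasmacytoid genes as a set were lower.

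Bst2, the interferon-induced antigen of plasmacytoid cells that tethers viruses to the cell surface, had 264 counts in APAP and 240 counts in ctrl (ratio 0.990, 0.828 to 1.18). A list of 18 interferon response genes, which holds Bst2, had 2072 counts in APAP and 1866 counts in ctrl (summed ratio 0.999, 0.938 to 1.06). Interferon response genes as a list were thus close to equal, with 2 of 18 higher (background 9.13%) and 2 lower (background 6.57%). Of the 3 members with an ISRE in the promoter, Bst2 and Ifi205 were not called, whereas Apol7c was lower.

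Ly6d, a small surface protein of plasmacytoid cells and of the B lineage, was the most abundant member. It had 1544 counts (534 CPM) in APAP and 1635 counts (598 CPM) in ctrl, and was lower by a ratio of 0.850 (0.792 to 0.912). Beside it, 8 of 11 B cell genes were lower and 0 were higher, with a summed ratio of 0.838 (0.814 to 0.863). The part of B cells in the values of Ly6d and Wdfy4 was not tested. Lair1, an inhibitory collagen receptor found on plasmacytoid cells and on many other leukocytes, was the member with the highest ratio. It had 157 counts (54.3 CPM) in APAP and 92 counts (33.6 CPM) in ctrl (ratio 1.54, 1.18 to 2.01), and its interval lay above 1 under all 6 scalings. Again the red pulp macrophage, monocyte and neutrophil lists were higher in the same library, and their part was not tested.

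Of the 7 mature genes, 3 were lower in APAP (background 6.57%), the most of any group, and 1 was higher (background 9.13%). Only Apol7c and Ccl22 of them were taken as largely restricted to dendritic cells. The median log2 ratio of the 7 genes was -0.43, the value of Relb, and -0.33 without Apol7c. Summed over the 7 genes, mature counts were 911 in APAP and 1019 in ctrl, a ratio of 0.805 (0.735 to 0.881). Apol7c, of the apolipoprotein L family and listed among genes that conventional dendritic cells raise on maturation, lies on the minus strand of chromosome 15 (mm10, chr15:77524852-77533316). It had 52 counts (18.0 CPM) in APAP and 148 counts (54.1 CPM) in ctrl. The ratio was 0.316 (0.226 to 0.436), and it ranged from 0.310 to 0.336 over 6 scalings. Among the 1865 genes with 200 to 320 counts, only the lowest 2.5% had a log2 ratio below -0.49, and that of Apol7c was -1.66. Related Apol7 genes lie beside it, and how the counting split reads between such copies is not known, so its level is uncertain to that extent.

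The pancreas list, which holds no member, had a summed ratio of 0.280, with all 18 of its genes that had at least 20 counts lower in APAP. Its part in the value of Apol7c was not tested. Apol7c was also divided by the sum of the other members taken as largely restricted to dendritic cells. This comparison was chosen after the values were seen and is free of any scaling. Ccl22, with 11 counts in APAP and 16 counts in ctrl, is the only mature gene in the sum. The sum therefore does not stand for mature cells, and cell number and RNA per cell stay untold. Relative to this sum (411 counts in APAP and 403 counts in ctrl), Apol7c was lower by a ratio of 0.345 (0.239 to 0.491).

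**Figure D3:**
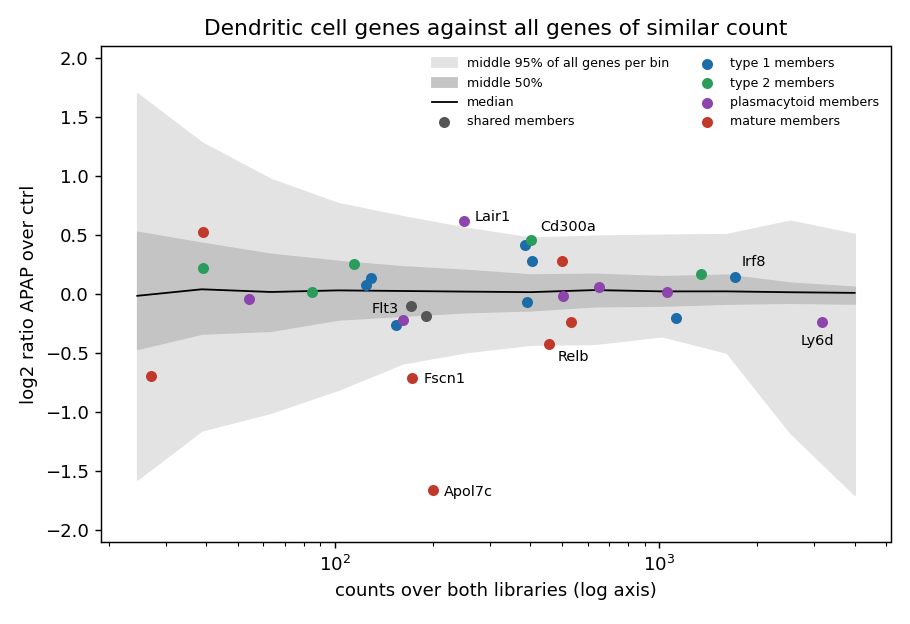
Log2 ratio APAP over ctrl of the 29 members against their counts over both libraries (log axis), over bands that hold the middle 50% and the middle 95% of all genes of similar count, with the median as a line. Apol7c, at -1.66, lay far below the band, Fscn1 at -0.71 lay below it and Lair1 at 0.62 lay above it, whereas the shared gene Flt3 lay inside the darker band.

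Fscn1, the actin-bundling protein fascin that shapes the dendrites of mature cells (chr5:142960343-142973185, plus strand), was lower as well. It had 70 counts (24.2 CPM) in APAP and 103 counts (37.6 CPM) in ctrl, a ratio of 0.612 (0.445 to 0.837). Relb, the NF-kB subunit that drives maturation (chr7:19606217-19629438, minus strand), had 206 counts (71.3 CPM) in APAP and 249 counts (91.0 CPM) in ctrl. It was lower by a ratio of 0.745 (0.616 to 0.899). Apol7c, Fscn1 and Relb were lower under all 6 scalings. B cells and T cells also express Relb, and the lists of both were lower (summed ratio of T cell genes 0.734), without a test of their part.

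Of the costimulatory members, Cd86 was higher, and Cd80 and Cd83 were not called. Cd86, a ligand of Cd28 that macrophages and monocytes also carry, had 288 counts (99.6 CPM) in APAP and 213 counts (77.9 CPM) in ctrl (ratio 1.22, 1.02 to 1.46). Cd80, the other ligand of Cd28, had 24 counts in APAP and 15 counts in ctrl (ratio 1.44, 0.725 to 2.95). Cd83, which keeps Cd86 and MHC class II at the surface and is also used by B cells, had 260 counts in APAP and 275 counts in ctrl (ratio 0.851, 0.715 to 1.01). The interval of Cd83 lay below 1 under 2 of 6 scalings, and that of Cd86 lay above 1 under 4 of 6. The chemokine Ccl22, which attracts Ccr4+ T cells to mature dendritic cells, had 11 counts in APAP and 16 counts in ctrl (ratio 0.619, 0.260 to 1.42). With so few counts, a modest difference in Ccl22 or Cd80 was not detectable at this depth.

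Further genes of dendritic cells that are no members were described in the same way from lists of 75 names. Of these, 70 had a row and 65 had at least 20 counts, with 5 higher (background 9.13%), 13 lower (background 6.57%) and a median log2 ratio of -0.09. Over all 12929 genes with at least 20 counts, 6878 ratios lay above 1 and 6027 below. Among 15 further mature genes 3 ratios lay above 1 and 12 below, with 0 higher and 2 lower. The lower genes were Ccr7, the receptor that guides mature cells to T cell areas, with 230 counts in APAP and 277 counts in ctrl (ratio 0.747, 0.625 to 0.893), and Stat4, with 72 counts in APAP and 101 counts in ctrl (ratio 0.642, 0.467 to 0.877). T cells express both genes too. A pair of cytokines was picked after their values were seen. Il12b had 0 counts in APAP and 1 count in ctrl, below the limit of 3 counts (1.04 CPM in APAP) that a count of 0 allows, and the chemokine Ccl17 had 2 counts in APAP and 3 counts in ctrl.

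Among 14 further plasmacytoid genes 0 were higher (background 9.13%) and 3 were lower (background 6.57%). Spib, a transcription factor of plasmacytoid cells and B cells, had 619 counts in APAP and 789 counts in ctrl (ratio 0.706, 0.635 to 0.785). Unc93b1, which carries endosomal Toll-like receptors to their compartment, had 1031 counts in APAP and 1064 counts in ctrl (ratio 0.872, 0.800 to 0.951). Klk1, a kallikrein that is also abundant in pancreas, had 680 counts in APAP and 1943 counts in ctrl (ratio 0.315, 0.288 to 0.344). Klk1 stood beside the ratio of 0.280 of the pancreas list, whose part in it was not tested.

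Of 13 further shared genes 2 were higher (background 9.13%) and 5 were lower (background 6.57%). Csf2rb, the signalling chain of the GM-CSF receptor, had 255 counts in APAP and 155 counts in ctrl (ratio 1.48, 1.21 to 1.82). Id2, a transcriptional regulator needed for type 1 cells, had 637 counts in APAP and 466 counts in ctrl (ratio 1.23, 1.09 to 1.39). Flt3l, the ligand of the member Flt3, was lower, with 136 counts in APAP and 165 counts in ctrl (ratio 0.742, 0.587 to 0.937). H2-Ab1, a chain of MHC class II that B cells also carry, had 5414 counts in APAP and 5526 counts in ctrl (ratio 0.882, 0.849 to 0.916).

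Of 10 further type 1 genes 0 were lower (background 6.57%) and 1 was higher (background 9.13%). This was the scavenger receptor Cd36, with 545 counts in APAP and 382 counts in ctrl (ratio 1.28, 1.12 to 1.47), which macrophages also express. Of 13 further type 2 genes 2 were higher (background 9.13%) and 3 were lower (background 6.57%). Higher were the lectin Clec12a, with 213 counts in APAP and 145 counts in ctrl (ratio 1.32, 1.07 to 1.64), and the Notch target Hes1, with 207 counts in APAP and 148 counts in ctrl (ratio 1.26, 1.01 to 1.57). Lower were Tbx21, a T-box factor of some type 2 cells and of NK cells, with 24 counts in APAP and 43 counts in ctrl (ratio 0.502, 0.292 to 0.847), and Cd4, with 100 counts in APAP and 136 counts in ctrl (ratio 0.662, 0.506 to 0.863). T cells carry most Cd4, and 7 of 10 T cell genes and 4 of 9 NK cell genes were lower in the same library.

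**Figure D4:**
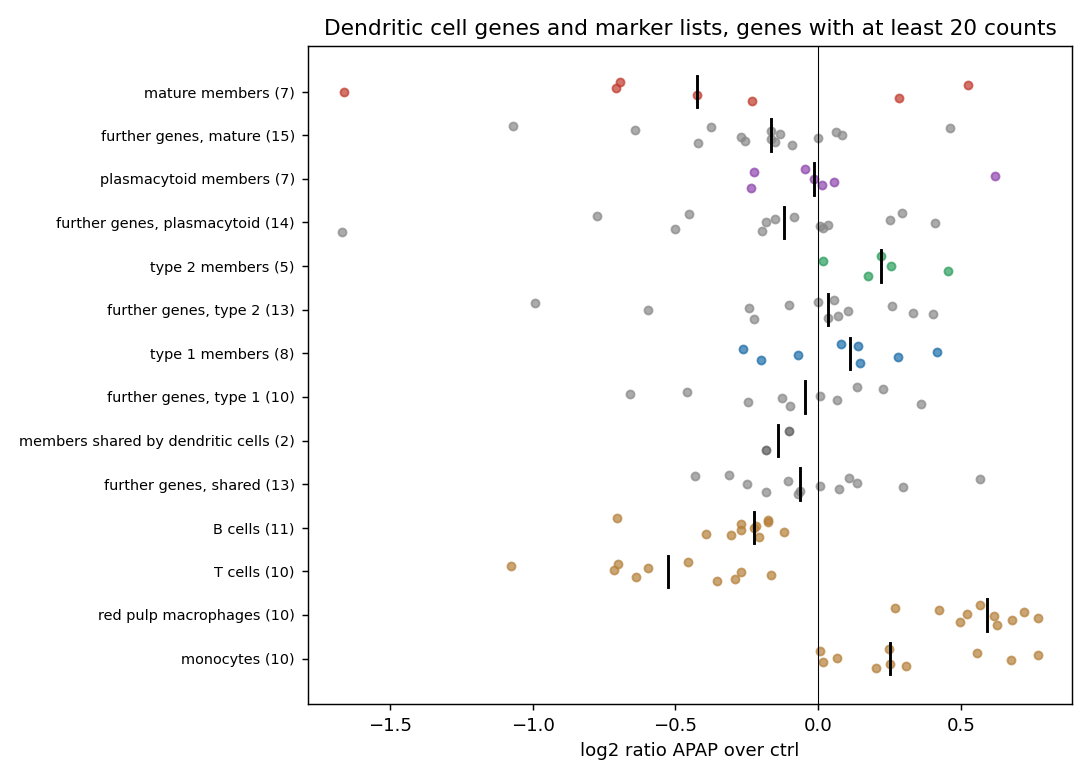
Log2 ratio APAP over ctrl of each gene with at least 20 counts (points) with the median of its list (bars), for the members by subset, for further genes of the same subsets and for lists of other cell types, with the number of genes in brackets. The medians were -0.43 for mature members and 0.22 for type 2 members, beside -0.22 for B cells, -0.53 for T cells, 0.59 for red pulp macrophages and 0.25 for monocytes.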

How the data were processed

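Splenic RNA was extracted with trizol, treated with DNase I, pooled per group and sequenced with the MACE-kit v.2, per the labels. The authors removed duplicate reads by unique molecular identifiers, mapped to mm10 and counted with HTSeq. DESeq2 was named for differential expression, whereas aligner, versions, annotation and strand setting were not given in the sources used here. All results rest on the raw counts per gene as deposited by the authors. Columns headed as TPM by the authors hold CPM, since they equal counts over library totals. A signal deposited by the authors is the count over 1 size factor per library, and 3 pooled columns were not used.

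Size factors were 1.05 for APAP and 0.949 for ctrl (DESeq2 1.42.0, R 4.3.3), and other scalings used edgeR 4.0.16. For each gene, the share of its reads that fell in the APAP library was given a Clopper-Pearson interval, from which that of the ratio was derived (Python 3.11.15, scipy 1.17.1, pandas 2.3.3, numpy 2.4.6, matplotlib 3.10.9). Zero reads allow for up to 3 counts, which make 1.04 CPM in APAP and 1.10 CPM in ctrl. Scripts were tested on simulated data. All 32 identifiers were found in GENCODE M21 of the same build, which gave coordinates and overlaps.

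Members and lists were chosen with earlier results of these data known. Every member found is named. Of each further list, up to 4 genes with at least 20 counts are named, those whose interval lay farthest from 1. Other cell types appear as sums and counts only, and Tlx1, Il12b and Ccl17 were named after their values were seen. A list of plasma cells (summed ratio 1.04) and 1 of mesothelium and epithelium together (summed ratio 0.646) were also made. Alternatives changed the scaling, the minimum count (10, 50 or none), the minimum ratio (1.5 or 3), the handling of 0 counts and the members summed.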

Additional observations from a re-analysis of the deposited data

How the results depend on the processing

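No paired analysis was possible because there is only 1 library in either group. Of 251 values recomputed under alternatives, 243 stayed close to the value given, which for a member ratio means inside its interval. Of 145 member ratios under 5 other scalings 0 left their interval, and 0 of the called ones changed direction, whereas the ratios of Naaa, Cd209a, Pld4, Bst2 and Runx2, none of them called, crossed 1. The number of members higher in APAP was 3 in place of 6 with TMM factors and with the upper quartile. With these 2 scalings 6 members were lower in place of 5. With library totals, also without haemoglobin and immunoglobulin genes, 4 were lower. With a ratio of at least 1.5 in place of 2, 1 member was higher (Lair1) and 2 were lower (Apol7c and Fscn1). The number lower by the 3-fold threshold was 1 in place of 2 with totals counted without globin and immunoglobulin genes, with 0.5 added to every count and with at least 20 counts. The summed ratio of members taken as largely restricted to dendritic cells was 0.918 in place of 0.756 without Apol7c, an alternative chosen after seeing the data. The median log2 ratio of all members ranged from -0.14, over members taken as largely restricted to dendritic cells, to 0.10. That of plasmacytoid members ranged from -0.04 to 0.07, so that neither has a firm sign. Scalings moved all log2 ratios by -0.03 to 0.09. Pools of 11 APAP and 5 ctrl mice give no spread between mice, and counts under 50 give wide intervals.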

Other observations

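Other genes of the apolipoprotein L family, named after their values were seen, had fewer counts than Apol7c. Apol7b had 22 counts in APAP and 30 counts in ctrl (ratio 0.660, 0.363 to 1.18), and Apol7e had 16 counts in APAP and 25 counts in ctrl (ratio 0.576, 0.287 to 1.12). Apol11b had 42 counts in APAP and 41 counts in ctrl (ratio 0.922, 0.585 to 1.45). Apol7a had 0 counts in APAP and 3 counts in ctrl, and the remaining members of the family had no more than 13 counts over both libraries. None of these intervals excluded 1, and the interval of Apol7b overlapped that of Apol7c.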
